A study of Mus musculus with 2 samples.

Results

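EP300 peaks were examined at 8 genes of extracellular matrix turnover: the inhibitors Timp2, Timp3 and Timp4, the matrix metalloproteinases Mmp2, Mmp14 and Mmp15, and the secreted proteases Adamts1 and Adamts9. A peak belonged to a gene when its summit, the position of highest enrichment, lay within 100 kb of a transcription start site (start site) of that gene and no other protein-coding start site was nearer. This chose 37 of the 17372 peaks of the authors' optimal list, at 7 of the 8 genes, out of 21864 protein-coding genes in the annotation. The genes were selected on their place in this list, so the number and signal of their peaks are a description and carry no test. Assignment by distance is not a measured link between a peak and a gene.

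EP300, also known as p300, is an acetyltransferase that transcription factors recruit to enhancers and promoters. ChIP-seq, which sequences the DNA that an antibody pulls down with a protein, mapped it in heart tissue of B6NCrl mice at postnatal day 0, with no mutation, transgene or treatment named in the labels. There was 1 group with 2 replicates, and no second tissue, age or genotype to compare. Both replicates carry the same biosample and donor identifier in the labels, so the spread between them may be technical.

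Matrix metalloproteinases (MMPs) cut collagens and other matrix proteins, and tissue inhibitors of metalloproteinases (TIMPs) block them by filling the active site. MMP2, a gelatinase, is secreted as an inactive precursor and is activated at the cell surface by the membrane-anchored MMP14, with TIMP2 as a bridge between them. TIMP3 stays bound to the matrix and also inhibits the sheddase ADAM17 and several ADAMTS proteases, while TIMP4 is best known from the heart. ADAMTS1 and ADAMTS9 cleave versican, a proteoglycan of the embryonic heart and its valves. Several TIMP genes lie nested within introns of synapsin genes, which encode proteins of synaptic vesicles.

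The sequences under the strongest summits show what EP300 sat on at these genes. Each is a 200 bp window of the plus strand of GRCm38 (mm10), read 5′ to 3′ from the RefSeq genome. It lies at the strongest peak of a gene that had a peak with a −log10 q of at least 2. Here q is the false discovery rate of the peak caller. This gave 5 genes, the same 5 that had a peak leading in both replicates. A leading peak is one of the 17372 peaks of highest signal in a replicate, as many as the optimal list holds. It is set by rank alone, with no threshold on q. Capitals mark matches to any of the 22 short motifs described further on. The windows are chr10:86341651-86341850 (Timp3), chr6:115240420-115240619 (Timp4), chr8:95392806-95393005 (Mmp15), chr16:85804297-85804496 (Adamts1) and chr6:92941432-92941631 (Adamts9).
Timp3: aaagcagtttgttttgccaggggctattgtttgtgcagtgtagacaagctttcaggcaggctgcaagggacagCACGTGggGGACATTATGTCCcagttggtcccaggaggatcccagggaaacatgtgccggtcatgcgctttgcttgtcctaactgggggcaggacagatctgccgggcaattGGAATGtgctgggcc
Timp4: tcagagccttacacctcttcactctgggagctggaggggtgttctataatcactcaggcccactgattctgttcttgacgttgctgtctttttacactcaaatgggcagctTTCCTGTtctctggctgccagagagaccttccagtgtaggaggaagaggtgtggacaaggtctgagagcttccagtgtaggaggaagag
Mmp15: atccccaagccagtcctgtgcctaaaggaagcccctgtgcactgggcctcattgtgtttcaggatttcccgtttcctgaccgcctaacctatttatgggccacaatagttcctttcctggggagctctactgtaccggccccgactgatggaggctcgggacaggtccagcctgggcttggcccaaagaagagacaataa
Adamts1: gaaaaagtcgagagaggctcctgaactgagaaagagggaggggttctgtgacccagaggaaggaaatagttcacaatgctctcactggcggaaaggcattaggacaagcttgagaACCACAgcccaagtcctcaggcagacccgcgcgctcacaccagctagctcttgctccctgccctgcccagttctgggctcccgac
Adamts9: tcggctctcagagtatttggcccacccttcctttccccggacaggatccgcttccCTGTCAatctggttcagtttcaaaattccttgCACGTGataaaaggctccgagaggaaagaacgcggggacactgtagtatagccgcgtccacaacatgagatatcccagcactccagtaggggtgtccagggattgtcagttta

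In the Timp3 window the first capitals are the E-box CACGTG of clock-type helix-loop-helix factors, at chr10:86341724-86341729. The second are GGACATTATGTCC, a palindrome that matches the glucocorticoid response element, at chr10:86341732-86341744. Their centres lay 24.5 and 13 bp before the summit, and a TEAD match, GGAATG, lay 87.5 bp after it. The Adamts9 window holds the same E-box, 10.5 bp before its summit, and a MEIS match on the minus strand, 42.5 bp before it. The Timp4 window has an endothelial-type ETS match on the minus strand, 14.0 bp after the summit, the Adamts1 window a RUNX match on the minus strand, 17.5 bp after it, and the Mmp15 window none of the 22. A match describes letters and is not a measured binding site of the factor.

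Marker genes were counted as a check of the labelled tissue. All 10 cardiomyocyte genes had peaks in the optimal list, 105 in all, and all 8 endothelial genes had peaks, 43 in all. Of the 8 fibroblast genes, 4 had 1 peak each, and the 8 smooth muscle and pericyte genes had none. Epicardial genes had peaks at 2 of 6, and macrophage, liver and neuronal genes at 1 of 6 each. Of all protein-coding genes, 31.8% had a peak. In bulk tissue, fewer cells of a type and less binding per cell cannot be told apart. The files give no read counts, so the depth of each library is unknown. At a −log10 q of at least 2, the replicate 1 list held 11112 calls and the replicate 2 list 3385. At the 8 genes the counts were 18 in replicate 1 and 5 in replicate 2.

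EP300 peaks were unevenly spread over the 8 genes. Timp3 had 12 of the 37 peaks, Mmp15 had 9, Adamts9 had 5, Timp4 and Adamts1 had 4 each, Mmp2 had 2, Timp2 had 1 and Mmp14 had none. Across all protein-coding genes, 31.8% had at least 1 optimal peak and 4.93% had 4 or more. The counts hold neighbouring calls: 19 of the 37 summits lay within 1 call width of another, and joining them left 27 sites, with 9 at Timp3, 6 at Mmp15, 4 at Adamts1, 3 each at Timp4 and Adamts9, and 1 each at Mmp2 and Timp2. Timp3 and Mmp15 led by either count in the optimal list, but the place of Mmp15 rested on weak calls. At a −log10 q of at least 2, Timp3 had 7 peaks, Timp4 4, Adamts9 3, Adamts1 2 and Mmp15 1. In the authors' conservative list Mmp15 had 4 peaks and Adamts9 5. The genes differ in territory, the sequence nearest to their start sites. For a share of all assigned peaks proportional to territory, the 200.5 kb of Timp3 would hold 1.95 peaks and the 51.1 kb of Mmp15 0.496. The peaks found were 18.1 times this share at Mmp15, 6.16 times at Timp3, 6.15 times at Timp4 and at most 3.68 times at the other 5 genes. By peaks per gene, 51 genes of the genome had 12 or more and 153 had 9 or more.

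**Figure D1:**
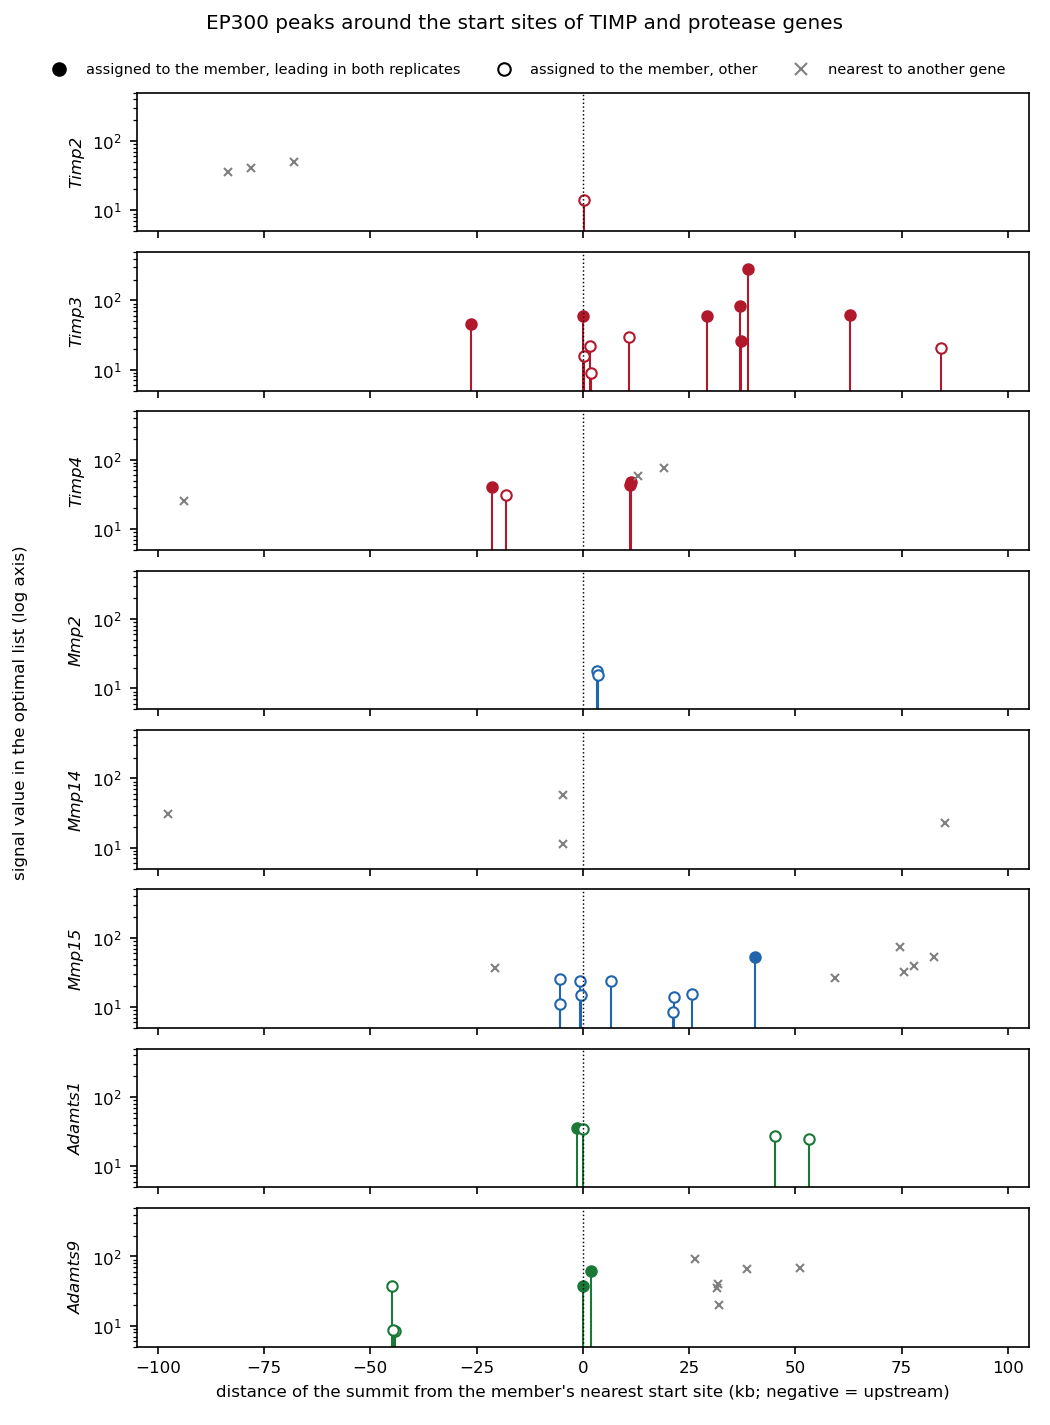
Each panel plots the optimal EP300 peaks around 1 gene by the distance of the summit from that gene's nearest start site (kb, negative upstream) and by signal value (log axis). Filled circles are assigned peaks that lead in both replicates, open circles other assigned peaks and crosses peaks nearest to another gene, with the Timp3 peak of 280.5 as the tallest stem and crosses alone at Mmp14.

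The signal value is the authors' own for each peak. Its formula is not given in the sources used here, so it serves here for describing and ordering calls that stand in 1 list. Signals of the replicate lists stand side by side below as the authors gave them, although replicate 1 was called against 2 control files and replicate 2 against 1. The 37 peaks had a median signal of 26.0, with a range of 8.35 to 280.5, against a median of 30.6 over all 17339 optimal peaks on the main chromosomes. A −log10 q of at least 2 was reached by 17 of the 37, or 45.9% (95% exact interval 29.5% to 63.1%), against 57.7% of all optimal peaks. By signal, the median peak of the 8 genes stood at percentile 35.9 of the optimal list, and at 51.8 once neighbouring calls were joined. Among the leading peaks of replicate 1 alone it stood at 55.9, and among those of replicate 2 alone at 37.9. The 11 peaks with a −log10 q under 1 included none that led in both replicates.

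Among the inhibitors, Timp3 stood first in number, in strength and in the 2 replicates. Its strongest peak, at chr10:86341562-86341927 in intron 2 of Timp3, had a signal of 280.5 and rank 6 of the whole optimal list. In replicate 1 this site had a signal of 144 and rank 9, and in replicate 2 a signal of 137 and rank 2. Both libraries therefore placed it among their strongest peaks. It was 3.36 times as high as the next Timp3 peak, of 83.6, and made up 39.4% of the gene's summed signal of 712, a sum that 12 genes of the genome reached or passed, Timp3 included.

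The other strong Timp3 peaks were spread along the gene and on both sides of it. The peak of 83.6, 37026 bp downstream of the nearest start site, had signals of 52.9 and 28.5 in replicates 1 and 2. A peak of 61.5 lay 62898 bp downstream, beyond the end of Timp3, with 39.3 and 21.5. A peak of 59.0 lay 29264 bp downstream in intron 1, with 36.5 and 24.7. All of these led in both replicates. So did the peak of 45.2 that lay 26402 bp upstream, with 19.96 in replicate 1 (rank 8034) and 23.4 in replicate 2 (rank 2959).

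At the start sites of Timp3 the peaks lay over the inner and not the outer one. The annotation gives Timp3 a protein-coding start at 86300372 and another 2482 bp downstream. The promoter-proximal peak of 58.7 lay 59 bp after the inner start, and 2541 bp after the outer one, with 36.5 in replicate 1 and 18.4 in replicate 2. A weaker call of 15.8 lay 322 bp after the inner start, with 13.6 in replicate 1 and no summit within 100 bp in replicate 2. Within 1 kb of the outer start no optimal peak was called. The pooled list held a call of 20.03 there (rank 19564), replicate 1 one of 8.41 (rank 46121) and replicate 2 one of 14.0 (rank 9720). The outer start was thus a leading call in replicate 2 and not in replicate 1.

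The remaining 5 Timp3 peaks ranged from 9.06 to 30.1. The highest, 10831 bp downstream of the inner start, had 22.2 in replicate 1 and no summit within 100 bp in replicate 2. All 12 summits lay within introns of the synapsin gene Syn3, in which Timp3 is nested, and 9 of them lay inside Timp3 too. Syn3 itself was nearest to 1 optimal peak, of 53.1, and Syn2 and Syn1 to none. In all, 7 of the 12 peaks led in both replicates and 10 had the same interval in the authors' conservative list.

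Timp4 had 4 peaks of even height and none at its promoter. The strongest, at chr6:115240272-115240767, 11328 bp downstream of the start, had a signal of 47.0 in the optimal list, 26.5 in replicate 1 and 16.3 in replicate 2. A call 11127 bp downstream had 43.6, with 17.1 in replicate 1 and 15.8 in replicate 2. Upstream of the gene, at 21341 bp, a peak of 40.3 had 26.2 in replicate 1 and 11.1 in replicate 2, and at 18071 bp a peak of 30.9 had 16.8 in replicate 1 and no summit within 100 bp in replicate 2, whose overlapping call ranked 8803. The 3 peaks with a summit in each replicate list led in both. All 4 had a −log10 q of at least 2, and the strongest was 1.08 times the next.

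The Timp4 peaks lay outside Timp4 and inside Syn2. The 2 downstream calls were in intron 4 of Syn2 and the 2 upstream ones in intron 10. The 2 downstream calls, the strongest of the 4, also lay in intron 1 of the predicted gene Gm17482. Within 1 kb of a Timp4 start, the pooled list held a call of 18.2 (rank 22854), replicate 1 one of 9.29 (rank 35969) and replicate 2 one of 7.94 (rank 36968), so no list had a leading call there. Stronger peaks of 74.8 and 58.0 lay 19015 and 13054 bp downstream of the Timp4 start, nearest to the predicted gene Gm17482. With the predicted genes Gm17482 and Gm15737 left out, an alternative chosen after the values were seen, Timp4 had 6 peaks. With start sites of every transcript of protein-coding genes, it had none. The number of peaks at Timp4 therefore rests on which start sites are counted.

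Timp2 had 1 weak peak. It lay 401 bp after a start site, over an exon with untranslated sequence, at chr11:118354857-118355352, with a signal of 14.0 in the optimal list and 8.51 in replicate 2 (rank 30215). Replicate 2 also had a higher, leading call 502 bp from a start site (rank 13408), which had no optimal summit within 100 bp. Replicate 1 had no summit within 100 bp, although its leading call 97 bp from a start site reached 13.4 (rank 17090). The strongest pooled call at Timp2 that was not in the optimal list was higher, at 18.9. Peaks of 49.3, 41.0 and 35.5 lay 68019 to 83499 bp upstream, all nearest to C1qtnf1.

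Mmp2, the gelatinase, had no peak at its promoter. None of the optimal, pooled and replicate lists held a call within 1 kb of either of its start sites, the one gene of the 8 for which this was so. Its 2 peaks, of 18.1 and 15.4, lay in intron 11, 3449 and 3668 bp after an inner start site and 20108 and 20327 bp after the outer one. The first had 13.2 in replicate 1 (rank 17591) and 6.14 in replicate 2 (rank 86533), and the second had 5.83 in replicate 1 (rank 136964) and 13.1 in replicate 2 (rank 11328). The replicates thus differed in which call was the higher, and neither call led in both. With 1 start site per gene, Mmp2 had no peak.

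Mmp14, the membrane-anchored activator of MMP2, had no optimal peak. Its strongest assigned calls were 14.4 in the pooled list (rank 35486), 10.5 in replicate 1 (rank 27411) and 9.34 in replicate 2 (rank 23595), all outside the leading peaks. Within 1 kb of its start sites the highest pooled call was 13.6 (rank 40200). Of the 4 optimal peaks within 100 kb, the 2 nearest belonged to the promoter of Mrpl52, which encodes a mitochondrial ribosomal protein. These had signals of 58.6 and 11.3 and lay 4734 and 4530 bp from Mmp14. Mmp14 also had the narrowest territory of the 8 genes, 19.0 kb of sequence nearest to its start sites, where a share of all assigned peaks proportional to length would be 0.184.

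Mmp15, another membrane-type MMP, had many weak calls and 1 strong site. The strong one, at chr8:95392658-95393153, lay 40638 bp downstream of the start, between genes, with a signal of 52.6 in the optimal list. In replicate 1 it had 46.6 and rank 882, and in replicate 2 it had 13.2 and rank 11055. The site led in both replicates but stood much higher in the first. It was the only Mmp15 peak of the 9 with a −log10 q of at least 2 and the only one to lead in both replicates.

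The other 8 Mmp15 peaks ranged from 8.35 to 25.8. At the promoter, calls of 23.6 and 15.1 lay 567 and 361 bp upstream of the start. The first had 10.7 in replicate 2 and no summit within 100 bp in replicate 1, and the second had 9.81 in replicate 1 and none in replicate 2, so each replicate had 1 call over this promoter. Calls of 25.8 and 11.2 lay 5470 and 5256 bp upstream, over an exon of Usb1 with untranslated sequence. A call of 24.2 in intron 1 had 11.7 in replicate 1 and 11.4 in replicate 2. From the leading peaks of replicate 1 alone Mmp15 had 4 peaks, and from those of replicate 2 alone it had 5. A further 6 optimal peaks within 100 kb were nearest to Cfap20 or Zfp319, up to 73.5.

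Adamts1 had its strongest peaks at and just upstream of its start. The peak of 36.4, at chr16:85804149-85804644 and 1284 bp upstream, had 20.9 in replicate 1 and 15.1 in replicate 2, and was the one Adamts1 peak that led in both. The peak of 34.5, 45 bp upstream of the start, had 25.7 in replicate 1 (rank 4540), while the nearest summit of replicate 2 lay 1004 bp away, with 4.99 (rank 168628). A peak of 27.7, 45192 bp downstream, had 25.5 in replicate 1, and the nearest summit of replicate 2 lay 808 bp away with 6.30. Replicate 2 had a leading call of 13.4 (rank 10674) close by, 44286 bp downstream of the start, which had no optimal summit within 100 bp. The fourth peak, of 25.2, lay 53256 bp downstream, with 15.9 in replicate 1 and 8.84 in replicate 2.

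Adamts9 had a peak on its promoter and a stronger one just inside the gene. The stronger, at chr6:92941284-92941779 in intron 2, lay 1960 bp after the start and had a signal of 62.3 in the optimal list, 34.6 in replicate 1 and 23.7 in replicate 2. The promoter peak, 56 bp upstream of the start, had 37.1 in the optimal list, 28.6 in replicate 1 and 15.9 in replicate 2. Both led in both replicates. Their summits also lay within the noncoding gene 9530026P05Rik. The other 3 calls stood 44252 to 44931 bp upstream within the same noncoding gene, at 8.35, 8.74 and 37.4. For the highest of these, replicate 1 had 26.2 (rank 4315) and replicate 2 had 6.56 (rank 69428), whereas the other 2 had no summit of replicate 1 within 100 bp and 11.1 and 13.3 in replicate 2.

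A further 6 optimal peaks lay inside Adamts9 but nearest to the start of Gm15737, a predicted gene within it. Their signals were 92.6, 68.2, 67.0, 40.1, 35.6 and 20.04, so 3 of them were higher than any peak assigned to Adamts9. With the predicted genes Gm15737 and Gm17482 left out, Adamts9 had 10 peaks and the 8 genes together had 44. Counting every peak within 100 kb of a start site, whichever gene was nearer, gave 59 peaks at the 8 genes.

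The replicate lists show which of the 37 peaks each library held by itself. A leading summit of replicate 1 lay within 100 bp of 21 of the 37, or 56.8% (95% exact interval 39.5% to 72.9%), against 65.3% of all optimal peaks. For replicate 2 the count was also 21, or 56.8%, against 55.8% of all. Leading summits of both replicates stood at 14 peaks, or 37.8% (22.5% to 55.2%), against 40.9% of all, and at 9 peaks neither replicate had one, or 24.3% (11.8% to 41.2%), against 19.7%. These shares lay close to those of the whole list, and each interval held the share of all peaks.

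Peaks of the 8 genes that led in both replicates were mostly ones with a −log10 q of at least 2 in the optimal list. Among the 17 with a −log10 q of at least 2, 13 led in both, or 76.5% (50.1% to 93.2%), against 67.1% of all such optimal peaks. Among the 20 others, 1 did. Leading in a replicate did not mean a −log10 q of 2 there. At the Timp3 peak 37228 bp downstream and the Timp4 peak 21341 bp upstream, the leading calls of replicate 2 had 0.766 and 0.828. Of all calls of replicate 2 at the 8 genes, 5 reached 2. The same interval stood in the conservative list for 23 of the 37, or 62.2% (44.8% to 77.5%), against 67.5% of all. The optimal and conservative lists were taken from the same reads as the replicate lists, so these shares are not independent measures. The 14 peaks comprised 7 at Timp3, 3 at Timp4, 2 at Adamts9 and 1 each at Mmp15 and Adamts1.

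Where both full replicate lists held a summit within 100 bp, the order of signals was alike. This was so for 23 of the 37 peaks, where rho (Spearman) was 0.70 and r (Pearson) 0.94 across peaks, and for 11663 of all optimal peaks, where rho was 0.49 and r 0.72. The points of each set share the same 2 libraries and are not replicates. The Timp3 peak of 280.5 stands far from the other 22 on both axes, where the next highest signals were 52.9 in replicate 1 and 28.5 in replicate 2. The r of 0.94 may rest largely on this point, and r without it was not computed. A further 7 of the 37 had a summit in replicate 1 alone, or 18.9% against 19.6% of all optimal peaks. In replicate 2 alone it was 5, or 13.5% against 9.30%, and in neither 2, or 5.41% against 3.86%, so the shares lay near those of the whole list. Among the leading peaks of replicate 1, 30 were assigned to the 8 genes and 9 of these had no optimal summit within 100 bp, or 30% against 34.7% of all its leading peaks on the assembled chromosomes. Among those of replicate 2, 32 were assigned and 11 had none, or 34.4% against 44.2%.

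**Figure D2:**
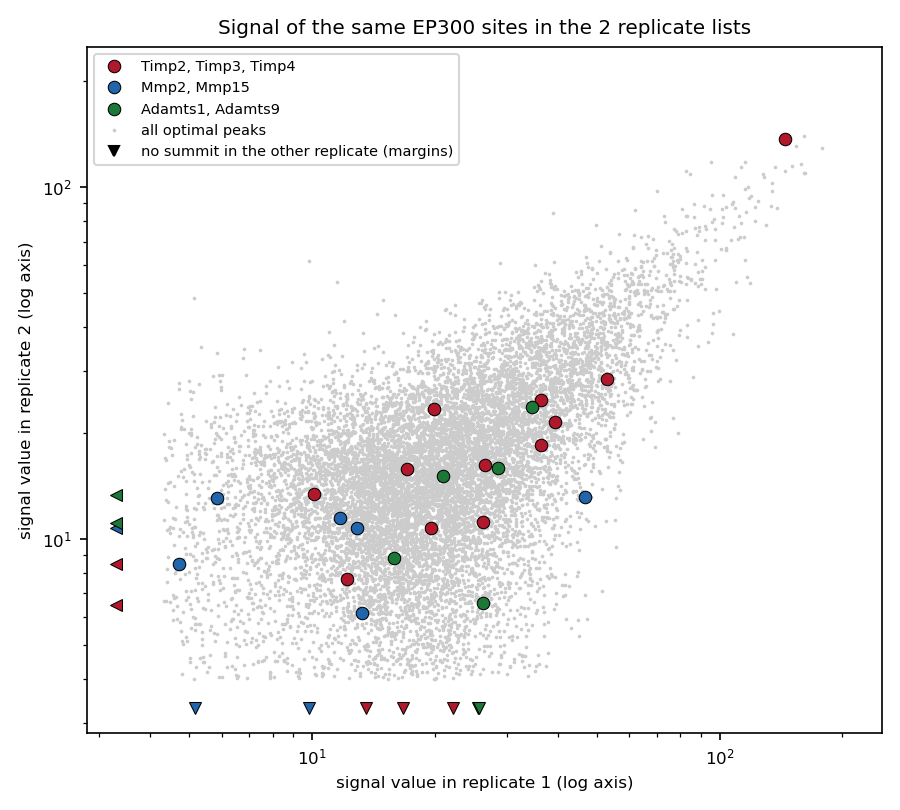
Signal value in replicate 1 (horizontal, log axis) against signal value in replicate 2 (vertical, log axis) for optimal peaks with a summit within 100 bp in each full list. Coloured points are the 23 peaks of the 8 genes, with the Timp3 peak at 144 and 137 at the top right, grey points are all optimal peaks, and triangles on the margins mark the 12 peaks with a summit in 1 replicate list alone.

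Peaks of the 8 genes lay within 1 kb of a start site in 7 of 37 cases, or 18.9% (95% exact interval 7.96% to 35.2%), against 33.5% of all optimal peaks. Those 7 stood at Timp3 and Mmp15, with 2 each, and at Timp2, Adamts1 and Adamts9, with 1 each. The interval of this share held the value of all peaks. The median distance from a start site was 11328 bp, against 8078 bp over all peaks. Of the 30 distal peaks, 18 lay in introns, or 60%, against 49.2% of all distal peaks, and 8 between genes, or 26.7%, against 47.7%. The 4 others lay over exons with untranslated sequence, or 13.3% against 1.88%, and all 4 belonged to Mmp15. The peaks share genes and neighbouring calls, so these counts are not independent draws. The sets of all peaks and all distal peaks, here and below, also hold the 10.2% of peaks without a start site within 100 kb. The rule keeps such peaks out of the 37, so the sets are unlike in distance.

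The base composition of the 200 bp summit windows was near that of the list at distal peaks and lower at promoters. Distal windows of the 8 genes had a median of 52.8% G and C, against 50.5% over all distal windows. The 7 promoter-proximal windows had a median of 55.5%, against 62.0% for all promoter-proximal windows, with a range of 45.5% to 77.0%. The lowest belonged to Timp3 and the highest to Timp2. The median ratio of observed to predicted CpG was 0.269 in the 37 windows, against 0.333 over all.

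The 200 bp windows were searched for 22 motifs on both strands, with N for any base. For heart muscle factors these were AGATAA of the GATA family, GGAATG of the TEAD family, AAGTGG of the NKX2 family and AGGTGTGA of the T-box family. Helix-loop-helix factors had CAGCTG as the class A E-box and CACGTG as the clock-type E-box. The ETS family had CCGGAA as its promoter type and ACAGGAA as its endothelial type. Signal-dependent factors had TGANTCA for AP-1, TGACGTCA for CREB, TTCNNNGAA for STAT proteins, TGGAAA for NFAT proteins, TGGGAA for RBPJ, the effector of Notch, GTCTAGAC for SMAD proteins and GNACANNNTGTNC for the glucocorticoid receptor. The rest were TGACAG of the MEIS family, ACAATGG of the SOX family, TGTTTAC of the forkhead family, GGGGCGGGG of KLF and SP factors and TGTGGT of the RUNX family. MEF2 and the CArG core of serum response factor were searched by their usual consensus. The 2 E-boxes exclude each other at 1 position, while matches to ETS, NFAT, RBPJ and STAT can overlap because they share letters.

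The MEIS letters were the most frequent at the 8 genes. They occurred in 14 of the 37 windows, or 37.8% (95% exact interval 22.5% to 55.2%), against 18.1% of all 17339 windows. They were in windows of 6 genes, with 5 at Timp3, 3 at Mmp15, 2 each at Mmp2 and Adamts9, and 1 each at Timp4 and Adamts1. In windows of 100 bp, 7 held them, or 18.9% (7.96% to 35.2%), against 10.2% of all, so this interval held the share of all windows. With neighbouring calls joined the share was 37.0% of 27 sites. RBPJ letters were in 12 windows, or 32.4% (18.0% to 49.8%), against 20.9% of all, and in 4 of the 100 bp windows, or 10.8%, against 11.4%. In 200 bp windows the interval for MEIS lay above the share of all windows, and that for RBPJ held it. Most windows of the 8 genes were distal, however. Of all distal windows, 21.5% held MEIS letters, which is just under the low end of that interval, 22.5%. Among the 30 distal windows of the 8 genes, 13 held them, or 43.3%. The intervals were not adjusted for the 22 motifs looked at.

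Letters of heart muscle factors lay on both sides of their share in the list. GATA letters were in 3 windows, or 8.11%, against 13.1% of all, and TEAD letters in 3, or 8.11%, against 14.9%. NKX2 letters were in 7, or 18.9%, against 13.2%, and the class A E-box in 7, or 18.9%, against 17.8%. MEF2, CArG, T-box, CREB, forkhead and SMAD letters were in none of the 37 (95% exact interval 0% to 9.49%), while 3.03% or fewer of all windows held each of them. The promoter-type ETS letters were in 1 window, or 2.70% (0.0684% to 14.2%), against 12.1% of all and 6.35% of all distal windows. For each of the 22 motifs other than MEIS the interval held the share of all windows. No test was run on these shares.

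**Figure D3:**
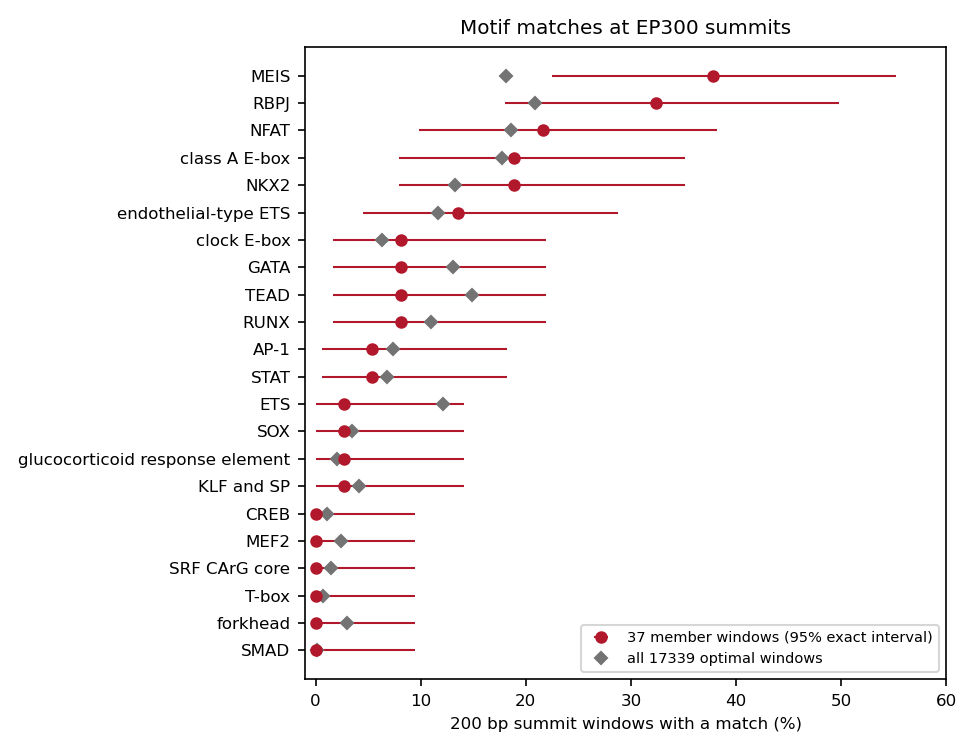
Share of 200 bp summit windows (%) with a match on either strand to each of 22 motifs. Red points are the 37 windows of the 8 genes with 95% exact intervals for counting error and grey diamonds all 17339 windows, and MEIS stands at 37.8% against 18.1%.

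Few windows of the list held both motifs of the strongest Timp3 summit, and few held either one. Of 17339 windows, 17 held both the clock-type E-box and the glucocorticoid response element, or 0.0980%, and the Timp3 window had the second highest signal among these 17. Across the 100 strongest optimal peaks, 21 held the glucocorticoid response element, or 21%, against 2.09% of all windows, and 10 held the clock-type E-box, or 10%, against 6.30%. The pair was chosen for counting after the sequence was seen. Whether the 2 motifs meet more or less often than their single shares of 6.30% and 2.09% would give was not tested.

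The 8 genes fall in 4 of 7 lists of matrix proteolysis. The 7 lists held 68 genes, of which 30 had a peak, with 103 peaks in all. Without the 8 genes, 23 of 60 had a peak, or 66 peaks, while 31.8% of all protein-coding genes had at least 1. Of the 4 TIMP genes, Timp1 was without a peak, and its strongest pooled call was 8.36 (rank 173272). Of the 6 membrane-type MMPs, Mmp15 was the one with peaks. Of the 14 secreted MMPs, 6 had peaks: besides Mmp2, these were Mmp28 with 2, up to 107 (rank 297), Mmp13, a collagenase, with 1 of 65.97, and Mmp19, Mmp11 and Mmp8 with 1 each, of 39.1, 31.3 and 21.3. Mmp9, the other gelatinase, and Mmp3 and Mmp7 had none.

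Of the 19 ADAMTS genes, 9 had peaks. Adamts17 had 7, up to 80.8, Adamts2, which trims procollagen, had 5, Adamts15 had 4, Adamts6 and Adamts7 had 3 each, Adamts4 had 2 and Adamts8 had 1. Adamts5, a versican- and aggrecan-cleaving relative that neighbours Adamts1, had none. Of the ADAMTS-like proteins, which lack the protease domain, 3 of 5 had peaks, with 6 at Adamtsl4, 4 at Adamtsl3 and 1 at Adamtsl2. Of the 9 ADAM proteases, 3 had peaks: Adam19 had 12, up to 76.2, Adam12 had 2, and Adam17, the sheddase that TIMP3 inhibits, had 2, with 90.8 at its promoter. Timp3 and Adam19, with 12 peaks and 9 joined sites each, thus had the most peaks of the 68 genes.

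Of the 11 regulators and substrates, 5 had peaks. Bsg, which induces MMPs, had 3. Furin, the convertase that processes membrane-type MMPs, had 2, and Plat, Acan and Bcan had 1 each. The membrane-anchored MMP inhibitor Reck and the proteoglycan Vcan, which ADAMTS1 and ADAMTS9 cleave, had none. At Vcan the pooled list held a call of 28.0 (rank 10932), 111 bp from a start site.

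**Figure D4:**
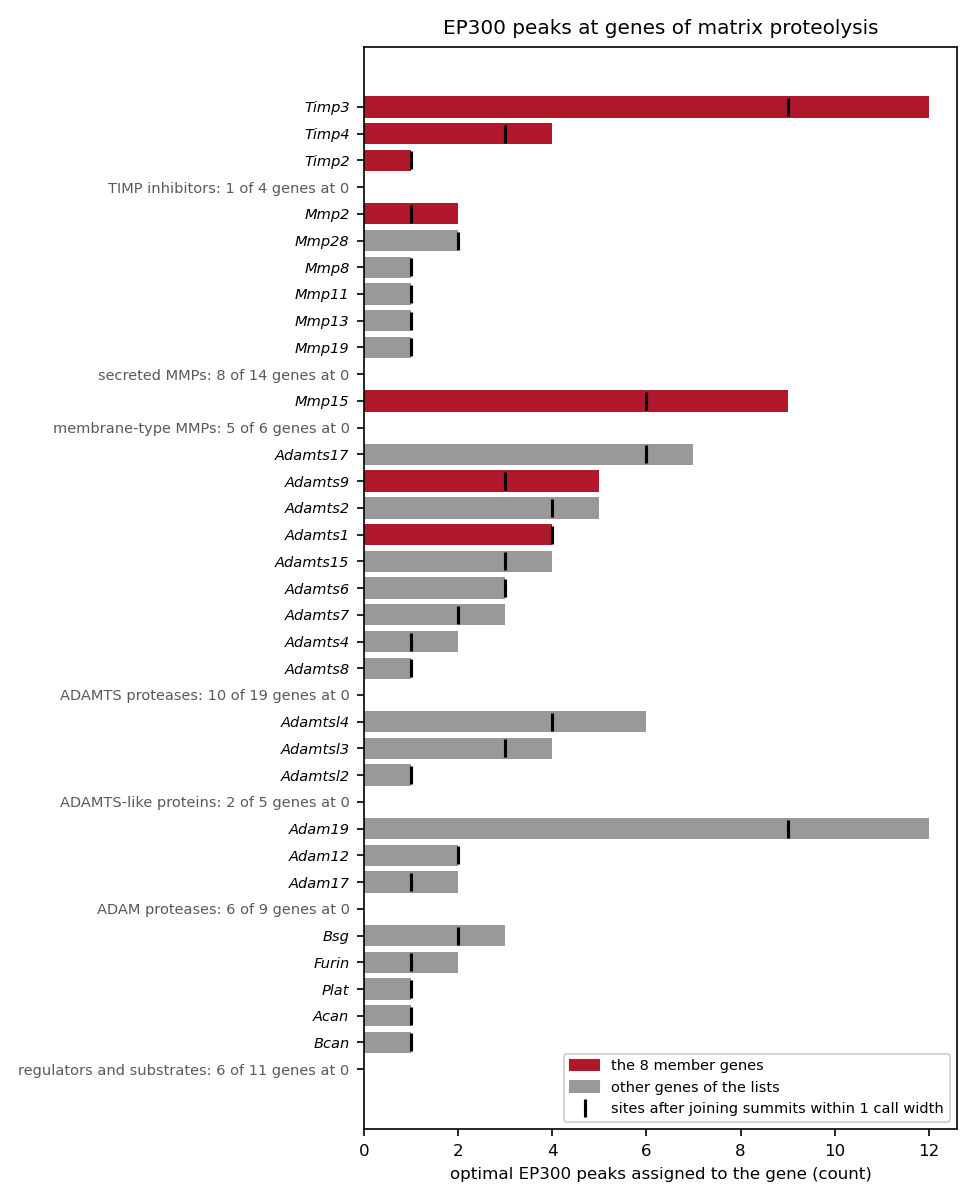
Bars give the number of optimal EP300 peaks assigned to each gene of the 7 lists that had at least 1, red for the 8 genes described here and grey for the other genes. Black marks give the number of sites after joining summits within 1 call width, the labels in grey count the genes at 0, and Timp3 and Adam19 reach 12 peaks.

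At the edges of the rule, the farthest assigned peaks were those of Timp3 at 62898 and 84211 bp, and the nearest beyond 100 kb were 2 at Adamts9, at 123284 and 289245 bp, with signals of 8.19 and 24.6. The lowest assigned signals were 8.35 at Mmp15 and at Adamts9. The highest pooled calls at the 8 genes that were not optimal peaks ranged from 12.4 at Mmp2 to 25.3 at Mmp15, and none of them reached a −log10 q of 2. The optimal list thus held calls with a lower signal than some calls it left out.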

How the data were processed

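EP300 ChIP-seq peaks of postnatal day 0 mouse heart were taken from 5 lists the authors deposited on mm10 (GRCm38): 1 for each of 2 replicates, 1 for the pooled reads, and an optimal and a conservative list. Per the file headers, replicate 1 was called with 2 control files and replicate 2 with 1. Not given in the sources used here were the aligner, the peak caller with its version, and the threshold of the optimal list. Each deposited peak has a signal value, a −log10 q value and, in the optimal and conservative lists, a score of at most 1000, all as the authors' files give them. Read counts stand in none of the files, so depth is unknown, and 95% exact (Clopper-Pearson) intervals cover counting error only.

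The 17339 optimal peaks on the main chromosomes were assigned to the nearest of 54391 start sites of protein-coding transcripts in GENCODE M21, within 100 kb. This left 10.2% without a gene. The steps of assignment, sharing and motif search were tested on simulated data, where they recovered 200 of 200 planted summits, 200 of 200 planted shared or unshared summits and 44 of 44 planted matches. The summits were planted at start sites far from any other. The simulation therefore did not test assignment where start sites of different genes lie close together. The computation used pysam 0.24.0, SciPy 1.17.1, pandas 2.3.3, numpy 2.4.6, matplotlib 3.10.9 and Python 3.11.15.

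The 8 genes, the lists and the rules were chosen with earlier results of these data known. All 8 genes are named, as are genes of the 7 protease lists with a peak and up to 4 without in each, and neighbours that hold peaks beside a member, some of these after their values were seen. A further gene chosen for these lists is not reported here and stands in none of their counts. There is 1 group, so no groups were compared and no p-value was computed. Alternatives covered distances, start sites, lists, call thresholds, joined calls, window lengths and each replicate alone.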

Additional observations from a re-analysis of the deposited data

How the results depend on the processing

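No paired analysis was possible because there was 1 group. The 37 peaks of the 8 genes became 17 at a −log10 q of at least 2, and 59 when any peak within 100 kb of a start site counted. They stayed between 27 and 44 under the other alternatives, among them 44 with the predicted genes Gm15737 and Gm17482 left out, which was chosen after seeing the data, and 30 and 32 from the leading peaks of 1 replicate alone. The share leading in both replicates, 37.8%, was 76.5% among peaks with a −log10 q of at least 2. The median signal percentile, 35.9, was 51.8 for joined sites, and 37.9 to 55.9 with 1 replicate left out. In 100 bp windows the motif shares were 5.41% for the class A E-box (9.54% of all windows), 0% for TEAD (8.57%) and 0% for AP-1 (3.85%). They were 18.9% for MEIS (10.2%), 2.70% for NKX2 (7.04%), 8.11% for NFAT (10.1%) and 10.8% for RBPJ (11.4%). For these motifs the share of all windows was lower at 100 bp than at 200 bp too. The size of the fall at the 8 genes was not tested. For joined sites ETS and SOX were at 0%, since the single window of each was merged. A further 81 alternative values of these summaries stayed within 1.5 times the reported count, inside the counting interval or, for the percentile, within the spread between replicates. The order of genes was less firm: Timp3 kept 7 to 12 peaks and had the most in every list and setting but the count of any peak within 100 kb, where Mmp15 had 15. Timp4 had 0 with start sites of every transcript of protein-coding genes or of every biotype, Mmp2 had 0 with 1 start site per gene, and Mmp14 had 0 in all but that count. Mmp15 fell from 9 peaks to 1 at a −log10 q of at least 2, below Timp4 with 4. The files give no reads, so no limit from depth can be stated.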

Other observations

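Some calls at the 8 genes led in a single replicate and had no optimal summit within 100 bp. In replicate 2 these included a call upstream of Timp4, with a signal of 14.7 (rank 8803), one 3245 bp into Adamts9, with 14.1 (rank 9638), and one 103 bp after the outer start of Timp3, with 14.0 (rank 9720). In replicate 1 the highest lay 1403 bp after the start of Mmp15, with 16.3 (rank 11906), and the next lay 68940 bp downstream of Timp3, with 14.9 (rank 14178). No summit of the other replicate lay within 100 bp of the Timp4 call or of the Mmp15 call. For the Adamts9 call replicate 1 had rank 202490, and for the outer start of Timp3 it had rank 46121. For the downstream Timp3 call replicate 2 had rank 58163. These are calls of 1 library each and carry no replicate check.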
